A study of Mus musculus with 2 samples.

Results

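The 10 immediate early response genes described here were Fos, Fosl1, Jun, Junb, Jund, Egr1, Ier2, Ier3, Zfp36 and Dusp1, chosen by name from the 14398 genes in the deposited expression table. All 10 were listed, and all 10 had a mean of at least 50 over both libraries, the floor below which genes were not counted. The RNA came from 46C, a line of mouse embryonic stem cells with a GFP reporter at the neural gene Sox1. The line labelled PB-ID2 overexpressed ID2, a helix-loop-helix protein that binds E proteins and keeps them from DNA, and the line labelled PB carried the vector without it. Both lines were grown on gelatin in serum medium with LIF, a cytokine that sustains self-renewal, and both were at passages 21 to 24; the labels do not say whether either line was a clone or a pool. Each group had 1 library, called the ID2 library and the control library here. No difference therefore has a replicate check, no test was run, and "higher" and "lower" describe the ID2 library against the control library.

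Immediate early genes are switched on within minutes of a growth factor, serum or stress signal, without new protein synthesis, by kinases such as ERK acting on factors already in the nucleus, among them SRF with its ETS partners and CREB. Their messages are mostly short lived. Several of the encoded proteins are transcription factors: FOS and JUN proteins pair through leucine zippers to form AP-1, and EGR1 is a zinc finger factor. ZFP36, which destabilizes AU-rich messages, and DUSP1, a phosphatase of MAP kinases, limit the response. In mouse embryonic stem cells FGF and serum both feed ERK, so these genes are commonly read as a sign of that pathway.

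The 10 genes did not move together. Egr1 was 2.19-fold higher in the ID2 library and Fos 2.09-fold lower, while Ier2 was 1.68-fold higher, Junb 1.57-fold lower and Zfp36 1.53-fold lower. Ier3 was 1.23-fold higher. Jun, Jund, Fosl1 and Dusp1 stood within 10% of equal. Past 2-fold, 1 of the 10 was higher, beside 2.53% of the 12679 genes above the floor, and 1 was lower, beside 1.86%. The median log2 ratio of the 10 was −0.03, and that of all genes above the floor was −0.002.

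The promoters of the genes that stood lower are shown for the sequence elements they hold, with that of Dusp1, whose values hardly differed, for comparison. RefSeq promoter entries on GRCm38.p6 were matched for 7 of the 10 genes (Dusp1, Fos, Ier3, Jun, Junb, Jund and Zfp36). The 250 bases before the annotated start are printed 5′ to 3′ on the gene's own strand: Fos from chr12:85473640-85473889 (plus strand), Junb from chr8:84978749-84978998 (minus strand), Zfp36 from chr7:28379229-28379478 (minus strand) and Dusp1 from chr17:26508473-26508722 (minus strand). Capitals mark any of these elements on either strand: the core of the cAMP response element (TGACGT), the AP-1 element (TGANTCA), the CArG box bound by SRF, the EGR element (GCGNGGGCG), the TATA box (TATAAA) and an E-box of the kind bound by E proteins (CAGNTG).
Fos: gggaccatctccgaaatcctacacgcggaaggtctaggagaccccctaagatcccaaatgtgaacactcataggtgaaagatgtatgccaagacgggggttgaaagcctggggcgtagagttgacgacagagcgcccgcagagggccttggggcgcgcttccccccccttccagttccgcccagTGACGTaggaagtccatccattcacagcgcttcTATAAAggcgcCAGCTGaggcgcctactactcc
Junb: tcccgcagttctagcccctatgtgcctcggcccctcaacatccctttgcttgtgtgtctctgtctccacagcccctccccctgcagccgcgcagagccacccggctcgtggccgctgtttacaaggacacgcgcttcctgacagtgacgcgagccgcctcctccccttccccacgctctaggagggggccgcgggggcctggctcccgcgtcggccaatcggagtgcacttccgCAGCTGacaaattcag
Zfp36: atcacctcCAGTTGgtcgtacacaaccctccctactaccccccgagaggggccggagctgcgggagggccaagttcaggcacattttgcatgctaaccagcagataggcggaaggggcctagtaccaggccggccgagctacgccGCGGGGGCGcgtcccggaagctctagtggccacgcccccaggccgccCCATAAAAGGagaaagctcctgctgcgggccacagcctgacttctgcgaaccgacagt
Dusp1: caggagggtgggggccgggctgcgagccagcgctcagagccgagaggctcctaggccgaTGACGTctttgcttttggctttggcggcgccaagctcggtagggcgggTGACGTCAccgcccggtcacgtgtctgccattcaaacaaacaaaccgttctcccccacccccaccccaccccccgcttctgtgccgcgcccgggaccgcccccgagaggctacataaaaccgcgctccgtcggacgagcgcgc

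The Fos stretch holds a cAMP response core 66 to 61 bases before the start, a TATA box at 33 to 28 and an E-box at 22 to 17. Junb holds an E-box at 16 to 11. Zfp36 holds an EGR element at 105 to 97, a CArG box at 58 to 49 and an E-box at 242 to 237. Dusp1 holds cAMP response cores at 191 to 186 and, as a full palindrome on both strands, at 143 to 136. The cAMP response core was found in 2 of the 7 promoters, beside 6.47% of all 32851 promoters of that length, and the CArG box in 1 of 7, beside 1.47%. The E-box was found in 6 of 7, beside 44.8% of all promoters, and only Dusp1 lacked it. Jun, Jund and Ier3, whose promoters are not printed, also held it. Their log2 ratios were −0.01, −0.07 and 0.30, so the E-box was not particular to the lower genes. The EGR element (Zfp36) and the TATA box (Fos) each occurred in 1 of 7, beside 4.70% and 12.4%, and the AP-1 element in 0 of 7, beside 6.75%. These matches describe the stated letters in a fixed window. Variants of those letters inside the window were not counted, and elements farther upstream were not looked at.

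Values are the authors' normalized values, one per library. Within each library a value was a whole number of steps (1 step was 1.005 in the ID2 library and 0.9952 in the control library), and once sorted, the ID2 and control columns held the same step numbers at every rank. A value therefore stands for a gene's place in its own library, and the read depth behind it is unknown. Id2 itself ranked 86th in the ID2 library and 8943rd in the control library, with a value of 26225 in the ID2 library and 324 in the control library. Markers of pluripotent cells were listed for 10 of 10 genes and summed to 185000 in the ID2 library and 157000 in the control library. Of these markers 8 were higher, 1 lower and 1 equal, beside 47.2% higher and 51.5% lower among all genes above the floor. Their log2 ratios ran from −0.08 to 0.85 with a median of 0.28. Pou5f1 had 13619 in the ID2 library and 12770 in the control library (0.09). Of 11 fibroblast and feeder markers, 7 were listed, summing to 1700 in the ID2 library and 2420 in the control library. Of the 7, 2 were under the floor, and 3 of the other 5 were lower. Log2 ratios of those 5 ran from −1.28 to 0.45 with a median of −0.38. Without the floor, 5 of the 7 were lower and the median was −0.67. The table does not list Col3a1, Postn, Dcn and Lum. In bulk RNA, fewer cells of a type and less RNA per cell cannot be told apart, and the part of such cells in the results below was not tested.

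**Figure D1:**
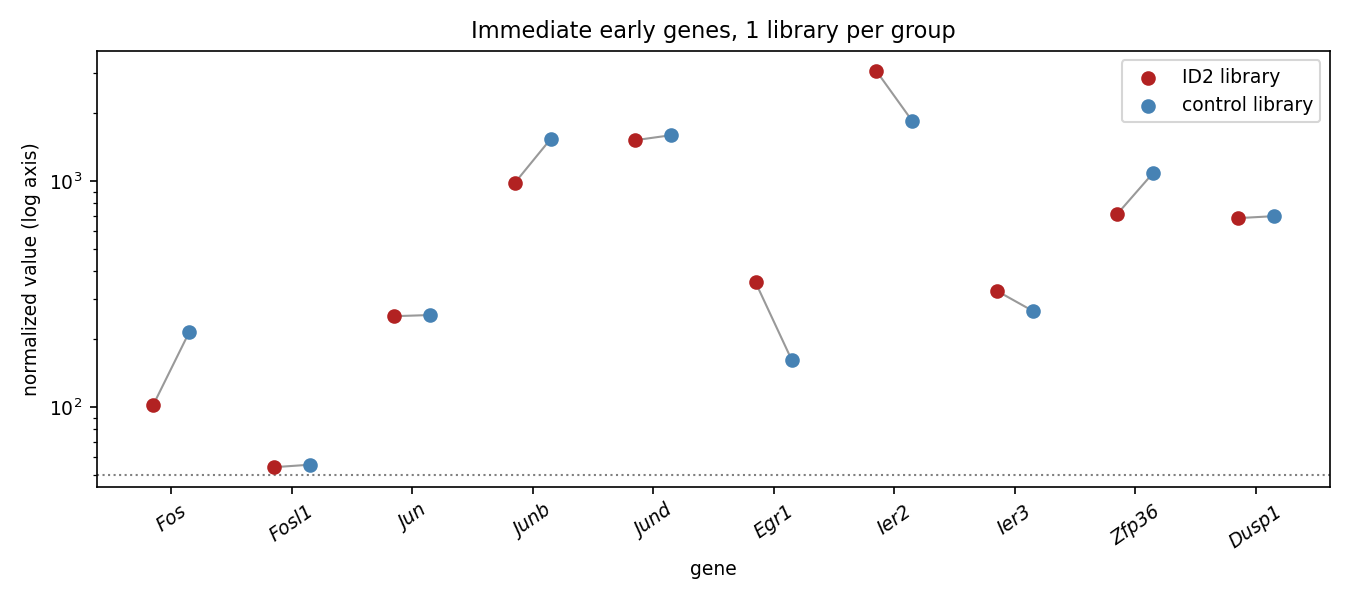
Normalized value of each of the 10 immediate early genes (log axis) in the ID2 library and the control library, 1 point per library, joined by a line for each gene, with the floor of 50 dotted. Egr1, Ier2 and Ier3 lie higher in the ID2 library, Fos, Junb and Zfp36 lie lower, and the lines of Jun, Jund, Fosl1 and Dusp1 are nearly flat.

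Among the FOS proteins, which need a JUN partner to bind DNA, Fos had a value of 102 in the ID2 library and 215 in the control library, a log2 ratio of −1.06. It ranked 11347th of 14398 genes in the ID2 library and 9885th in the control library. Fosl1, which encodes FRA-1 and is itself an AP-1 target in many cells, had 54.3 in the ID2 library and 55.7 in the control library (log2 ratio −0.04). Both values lie just over the floor, 54 and 56 steps, where ratios spread most. Of the related genes, Fosl2 stood under the floor at 42.2 in the ID2 library and 30.8 in the control library.

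The 3 JUN genes differed in both level and ratio. Jun, the founding AP-1 subunit, had 253 in the ID2 library and 256 in the control library (log2 ratio −0.01). Junb, which forms AP-1 dimers that act more weakly than those of JUN at many sites, had 981 in the ID2 library and 1542 in the control library (−0.65), with a rank of 5543 in the ID2 library and 3906 in the control library. Jund, the JUN gene expressed most steadily in resting cells, had 1519 in the ID2 library and 1596 in the control library (−0.07). Divided by transcript length, Junb made up 35.4% of the JUN family in the ID2 library and 45.1% in the control library, while Jund made up 59.4% in the ID2 library and 50.7% in the control library. Jun contributed 5.18% in the ID2 library and 4.24% in the control library. Jund thus led the family in both libraries, and the distance between Jund and Junb was wider in the ID2 library.

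Egr1 had 357 in the ID2 library and 162 in the control library, a log2 ratio of 1.13, and ranked 8736th in the ID2 library and 10498th in the control library. Egr1 and Fos are commonly induced side by side by ERK, but here they stood in opposite order in the libraries. Per kilobase, the ratio of Egr1 to Fos was 1.64 in the ID2 library and 0.355 in the control library. Egr1 had the highest and Fos the lowest log2 ratio of the 10 genes, so no other pair of them would differ more.

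Ier2 and Ier3 were named as immediate early response genes; IER2 acts in the nucleus, and IER3 affects cell survival and ERK signaling. Ier2 had 3092 in the ID2 library and 1845 in the control library (log2 ratio 0.74). The difference of 1247 was greater in absolute terms than that of any other of the 10 genes, and the rank was 1911 in the ID2 library and 3284 in the control library. Ier3 had 328 in the ID2 library and 267 in the control library (0.30).

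Of the genes that limit the response, Zfp36 had 715 in the ID2 library and 1095 in the control library (log2 ratio −0.61), ranking 6641st in the ID2 library and 5106th in the control library. Dusp1 had 687 in the ID2 library and 701 in the control library (−0.03), and ranked 6781st in the ID2 library and 6682nd in the control library.

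Because ratios spread more at low levels, each gene was set beside genes of a similar level, in 5 bins of equal gene number. Ier2 was in the highest bin, where 1.03% of 2536 genes had a log2 ratio at least as high. Egr1 was in the second bin from the bottom (means of 195 to 536), where 1.97% were at least as high. Junb was in the fourth, where 1.62% were at least as low, and Zfp36 in the third, where 3.27% were. Fos was in the lowest bin (50 to 195), where 5.68% of genes were at least as low and 6.47% were at least 2-fold lower. Fos, the gene with the lowest log2 ratio of the 10, thus lay inside the 5th percentile of its bin (−1.09), and Egr1, Ier2, Junb and Zfp36 lay outside the 5th to 95th percentile range of theirs. The remaining 5 genes lay well inside, with 24.0% to 49.1% of their bins at least as far in the same direction.

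**Figure D2:**
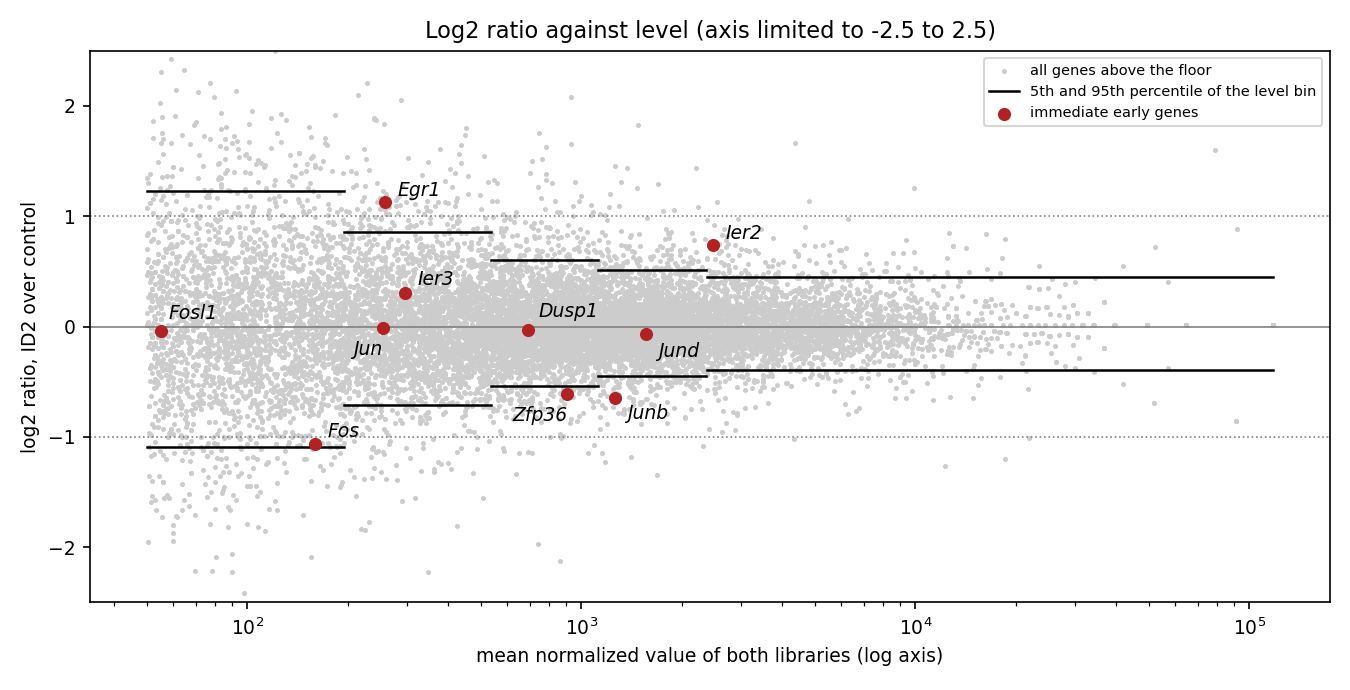
Log2 ratio of the ID2 library over the control library against the mean normalized value of both libraries (log axis), for all genes above the floor in grey and the 10 immediate early genes in red; black lines are the 5th and 95th percentile in each of 5 level bins, and dotted lines mark 2-fold. Egr1 (1.13) and Ier2 (0.74) lie above their bins' 95th percentile, Junb (−0.65) and Zfp36 (−0.61) lie below their 5th percentile, and Fos (−1.06) lies just inside its own.

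At the lower threshold of 1.5-fold, 2 of the 10 genes were higher (Egr1 and Ier2), beside 8.00% of all genes above the floor, and 3 were lower (Fos, Junb and Zfp36), beside 6.59%. By any number of steps, 3 of the 10 were higher and 7 lower, beside 47.2% and 51.5% of all genes, and 4 of those 7 differed by under 10%. Within 10% of equal stood 4 of the 10, beside 33.9% of all genes; this limit was chosen after the values were seen. With a pseudocount of 10 the count of genes at least 2-fold lower was 0 in place of 1, since Fos lies close to that threshold.

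The authors' deposited table gives 2 of the 10 genes an unadjusted p under 0.05, beside 3.85% of its 14398 genes. In the authors' deposited table, p was 0.0123 for Ier2 (adjusted 0.811) and 0.041 for Egr1 (adjusted 1). The next in the authors' deposited table were Junb with p = 0.0515, Zfp36 with p = 0.0906 and Fos with p = 0.119, each with an adjusted p of 1. None of the 10 had an adjusted p under 0.05 in the authors' deposited table, beside 0.181% of all its genes. Those p-values come from 1 library per group and rest on no spread between replicates.

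Levels of different genes were compared per kilobase of the longest protein-coding transcript in the basic GENCODE M21 annotation. In the ID2 library the order was Ier2 (2032 per kilobase), Jund (911), Junb (542), Dusp1 (345), Ier3 (290), Zfp36 (256), Egr1 (79.6), Jun (79.4), Fos (48.6) and Fosl1 (29.1). In the control library it was Ier2 (1212), Jund (957), Junb (852), Zfp36 (392), Dusp1 (352), Ier3 (236), Fos (102), Jun (80.2), Egr1 (36.2) and Fosl1 (29.9). The 3 highest genes and the lowest were the same in both libraries, Zfp36 stood 2 places lower in the ID2 library, and Fos and Egr1 each moved 2 places in opposite directions. Without replicates, the order of near neighbours such as Egr1 and Jun in the ID2 library cannot be taken as a difference. Summed over the 10 genes, the values came to 8089 in the ID2 library and 7733 in the control library, a ratio of 1.05. Ier2 alone was higher by 1247, more than the difference between these sums. The other genes together thus summed lower in the ID2 library.

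**Figure D3:**
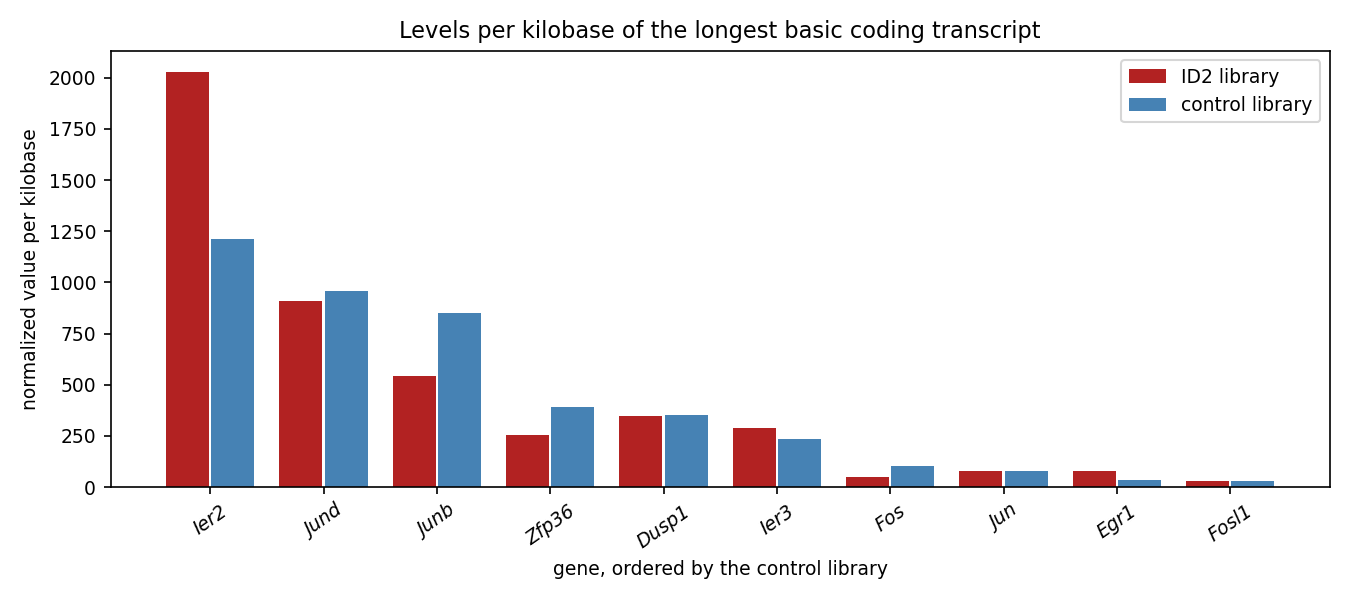
Normalized value per kilobase of transcript for the 10 immediate early genes in the ID2 library and the control library (1 bar per library, axis from 0), ordered by the control library. Ier2, Jund and Junb are the 3 highest in both, with Ier2 at 2032 in the ID2 library and 1212 in the control library.

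Exon structure moved with the ratios of all genes. Coding genes whose longest basic transcript has 1 exon had a median log2 ratio of 0.206 over 221 genes, with 63.8% higher, 9.95% past 2-fold upward and 4.98% past 2-fold downward. Coding genes of several exons had a median of 0.001 over 11287 genes, with 47.4% higher, 2.18% past 2-fold upward and 1.37% past 2-fold downward. Of the 10 immediate early genes, Ier2, Jun, Junb and Jund have 1 exon, with log2 ratios of 0.74, −0.01, −0.65 and −0.07. Over all levels together, the 5th to 95th percentile range of the 1-exon class was −1.0 to 1.43. Ier2 and Junb, outside the range of their level bins, lay inside this one. Egr1, with 2 exons, has 56.2% of its transcript in the larger one. The part of exon structure in the values of Ier2 was not tested; Junb, Jun and Jund lay below the median of their class.

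The other immediate early genes, a list of 32 transcripts known for early induction, had 27 listed and 24 above the floor. Of these, 16 were lower and 8 higher, beside 51.5% lower and 47.2% higher among all genes above the floor. Their median log2 ratio was −0.28, beside −0.002 for all genes. At least 2-fold lower stood 2, beside 1.86% of all genes, and at least 2-fold higher stood 0, beside 2.53%. The same shares of all genes apply to the lists that follow. Gadd45b, a stress-induced relative of Gadd45a, had 703 in the ID2 library and 1652 in the control library (−1.23). Ier5, a relative of Ier2, had 56.3 in the ID2 library and 145 in the control library (−1.35), the opposite direction from Ier2. Rhob, a small GTPase, had 587 in the ID2 library and 344 in the control library (0.77), and Ctgf, a matricellular protein regulated by SRF and YAP, had 141 in the ID2 library and 82.6 in the control library (0.76). In the authors' deposited table, Gadd45b had an adjusted p of 0.114. Fosb, Egr2, Egr3, Egr4 and Nr4a3 were not in the table, so no level can be given for them.

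The factors and kinases upstream showed no shared direction. All 22 listed genes were above the floor, with 11 higher, 11 lower and a median of 0.02, and none was 2-fold apart. Elk3, an ETS partner of SRF, had 560 in the ID2 library and 289 in the control library (0.95). Creb1, which binds cAMP response elements, had 1296 in the ID2 library and 925 in the control library (0.49). The kinase Rps6ka3, which acts below ERK, stood at 0.46 and Mkl2, an SRF co-activator, at 0.45 on the log2 ratio scale. RNA levels of these genes carry no reading of kinase activity.

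Among partners and inhibitors of AP-1 and EGR1, 8 genes lay above the floor, 6 of them higher and 2 of them lower, and their median was 0.15. Nab2, a co-repressor that binds EGR1 and is itself an EGR1 target in other cells, had 728 in the ID2 library and 440 in the control library (0.72), the same direction as Egr1. Jdp2, which dimerizes with JUN proteins and represses AP-1, had 1063 in the ID2 library and 770 in the control library (0.46), and Men1, which encodes the JUND-binding protein menin, had 2703 in the ID2 library and 2175 in the control library (0.31). Mafg stood at 0.18.

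The MAP kinase phosphatases related to Dusp1 stood apart from it and from each other. Over 7 genes above the floor (4 higher, 3 lower) the median was 0.06 and the mean 0.40. Dusp6, a cytoplasmic ERK phosphatase, had 1415 in the ID2 library and 450 in the control library (1.65). Its adjusted p in the authors' deposited table was under 0.05, again from 1 library per group. Dusp5, a nuclear one, had 161 in the ID2 library and 55.7 in the control library (1.51), and its adjusted p was not under 0.05. Thus 2 of the 7 were at least 2-fold higher, beside 2.53% of all genes above the floor. Dusp5 lay in the lowest level bin, where 7.49% of genes were at least 2-fold higher. Dusp4 had 155 in the ID2 library and 273 in the control library (−0.81), and Dusp14 had 136 in the ID2 library and 89.6 in the control library (0.59). Dusp1 itself was nearly equal in the libraries.

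**Figure D4:**
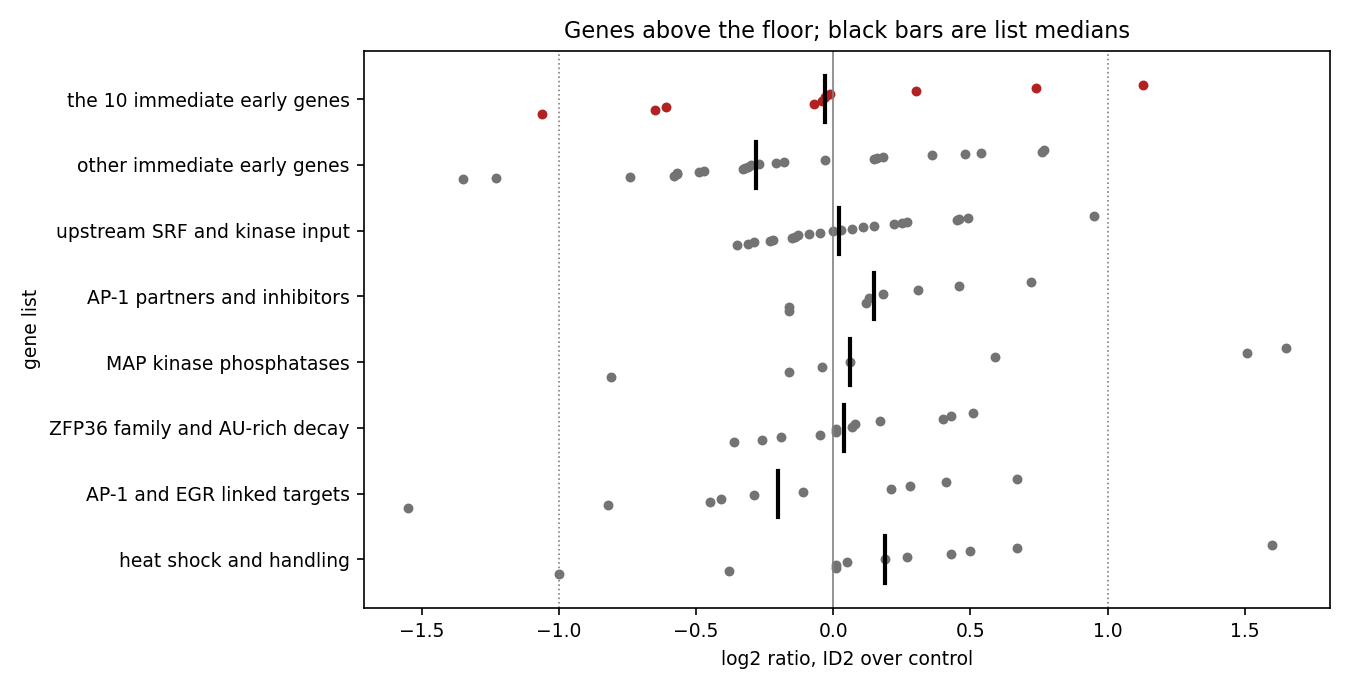
Log2 ratio of the ID2 library over the control library for each gene above the floor in 8 lists, 1 point per gene, with the list median as a black bar and 2-fold as dotted lines. The 10 immediate early genes spread on both sides of 0 around a median of −0.03, and the other immediate early genes have a median of −0.28.

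Chaperones, which heat or handling of cells can raise together with immediate early genes, numbered 11, with 7 higher, 2 lower, 2 equal and a median of 0.19. Hspa8 had 118714 in the ID2 library, a ceiling that Hsp90ab1 shared, and 39235 in the control library. Its adjusted p in the authors' deposited table was under 0.05, from 1 library per group. Hspb1 had 10509 in the ID2 library and 6605 in the control library (0.67), and Hsph1 stood at 0.50. Hspa1a, which is induced by heat and has a near-identical copy that may share its reads, had 58.3 in the ID2 library and 117 in the control library. That copy, Hspa1b, had 363 in the ID2 library and 474 in the control library (−0.38). Hspa1a and Hspa1b were the 2 lower chaperones. The part of handling in the ratios of the 10 genes was not tested.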

How the data were processed

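The submitters' processing notes name STAR and DESeq with mouse build mm9; their versions, the gene models and the counter are unstated there. Libraries came from a kit that, per the labels, is a TruSeq RNA kit, which does not mark strand, so overlapping antisense genes cannot be told apart. The deposited table gives a normalized signal value per gene and library, made by the authors, with the authors' fold (ID2 over control), its log2, and raw and adjusted p-values; 0 columns were left unmapped.

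From these, log2((ID2 value + 1)/(control value + 1)) was computed for every gene with Python 3.11.15, numpy 2.4.6 and pandas 2.3.3, and figures were drawn with matplotlib 3.10.9. The pseudocount of 1 understates ratios of low genes. Genes with a mean of at least 50 were kept (12679; 1719 fell under the floor). Counts of higher and lower genes used whole steps. Exon number and transcript length came from GENCODE M21, matched by symbol for 11508 genes (90.8% of those above the floor), on a later build than the authors' and so used without coordinates.

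The 10 genes were fixed by name; in each other list the up to 4 genes with the largest absolute ratio above the floor could be named, with Id2, Pou5f1, Nanog and Sox2. Fosl2, Hsp90ab1, Hspa1b and genes missing from the table were named outside this rule, after their values were seen. The genes and lists were chosen with earlier results of these data known. A gene that this rule names is not reported here.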

Additional observations from a re-analysis of the deposited data

How the results depend on the processing

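No paired analysis was possible because each group has 1 library. Of 504 recomputed values, 474 stayed within the tolerances (0.1 for a log2 value, 1.5 times for a count or share) and 30 moved; 0 reversed. Several alternatives can hardly move a ratio past 0.1, so this is not a measure of stability. The median of the 10 genes lay between −0.05 and −0.02. With a pseudocount of 10, 0 of the 10 were at least 2-fold lower, and with a floor of 250, which removes Fos, also 0. At 1.5-fold, 2 were higher and 3 lower (8.00% and 6.59% of all genes), and at 4-fold 0 and 0 (0.181% and 0.142%). Without a floor, the shares of all genes past 2-fold were 3.83% upward and 3.26% downward, 1 AP-1 partner was 2-fold lower, and of the fibroblast markers 5 were lower and 3 at least 2-fold lower (median −0.67). With a floor of 250, these shares were 1.10% and 0.553%; the other immediate early genes had 5 higher and 1 at least 2-fold lower, the phosphatases 2 higher and 1 at least 2-fold higher, the AP-1 and EGR linked targets 0 at least 2-fold lower, the chaperones 1 lower, and the fibroblast markers 0 higher and 0 at least 2-fold lower (median −0.53). These floors changed which genes were counted. Among chaperones, 1 gene was at least 2-fold lower, in place of 0, on the steps before size factors, with a pseudocount of 0.1 and in the authors' deposited log2 fold change. Depth is unknown, so no counting error can be given.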

Other observations

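Of 15 genes often described as targets of AP-1 or EGR1 in other cells, 13 were in the table and 10 above the floor. In the ID2 library 6 of the 10 were lower and 4 higher, close to the 51.5% lower and 47.2% higher among all genes, and their median log2 ratio was −0.20, beside −0.002 for all genes. Mmp2, a gelatinase, had 822 in the ID2 library and 1449 in the control library (−0.82; adjusted p of 0.916 in the authors' deposited table). Plaur, the urokinase receptor, stood at −0.45. Lif, which encodes the cytokine also present in the medium, had 268 in the ID2 library and 168 in the control library (0.67).

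Genes of the ZFP36 family and of message decay showed no shared direction, and 0 were at least 2-fold higher or lower. All 12 were above the floor, with 6 higher, 4 lower and 2 equal, and a median of 0.04. Zfp36l1, a relative of Zfp36 that also binds AU-rich messages, had 1783 in the ID2 library and 1324 in the control library (0.43), the opposite direction from Zfp36. Dcp2, a decapping enzyme, had 6680 in the ID2 library and 4701 in the control library (0.51), above the 95th percentile of the highest level bin (0.45). Dcp1a, its activator, stood at 0.40 and Cnot6l, a deadenylase, at −0.36.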
